A study of Canis lupus familiaris with 5 samples.

Results

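The stable abundant genes were nuclear gene models with a high and nearly even level in dog skin fibroblasts, in induced neural stem cell-like cells (iNSLCs) and in induced pluripotent stem cells (iPSCs). They were chosen by the measured levels themselves. A gene had to reach 200 CPM (its count per 1000000 counts of the library) in each of 5 libraries, and its highest CPM could be at most 1.5 times its lowest. Of 32183 nuclear gene models, 304 reached this level in every library, and 41 of those 304 also met the limit on the ratio. The other 263 abundant genes served as the comparison.

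The libraries came from cells of 1 adult dog, K9, and followed the course of reprogramming. The fibroblast group was 1 library of ear skin fibroblasts at passage 1, without vectors. The iNSLC group was 1 library at passage 2, from the colonies that grew in the medium NSM after transfection with episomal vectors. These plasmids, which do not need to integrate, carried the human factors LIN28, L-MYC, KLF4, SOX2 and OCT4, together with KLF2, NANOG, GLIS1, KDM4D, EGFP and mp53DD, a mouse Trp53 that acts as a dominant negative. The iPSC group was 3 clones picked after such colonies had been moved to a medium with basic fibroblast growth factor and serum replacement, at passage 9 for clone 1 and passage 8 for clones 2 and 3. All libraries thus share the animal, the clones passed through the same kind of colony, and passage cannot be told apart from group. The sample titles give the iNSLC library and iPSC clone 1 the same number. Whether clone 1 came from those colonies was not stated in the sources used.

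Genes with an even level across cell types are often called housekeeping genes, since many of them serve needs that every cell has, such as protein synthesis, energy supply, RNA handling and the cytoskeleton. They matter in practice because quantitative PCR is commonly read relative to such reference genes. In sequencing data a level is always relative to the other RNA in the same library. A gene can therefore keep the same share of the reads while its amount per cell differs, and bulk libraries cannot tell these apart.

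The files listed Ensembl dog gene IDs on the CanFam3.1 build without symbols, and the table of dog gene names used here matched 0 of 32220 IDs. No role or sequence is therefore given for any ID, and the labelled cell types were not checked against marker genes. Library totals ranged from 11699186 to 34317091 counts, with the lowest in the iNSLC library. Mitochondrial gene models, which the choice left out, took between 2.48% and 9.99% of the counts. With 1 library each of fibroblasts and iNSLCs, only the iPSC values carry a spread between samples.

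Most of the 41 genes were moderately high rather than extreme. Their mean level over the 5 libraries had a median of 328 CPM, against 631 CPM in the other abundant genes. The limit on the ratio holds down their mean, so that this difference partly follows from the choice. By the lowest CPM, 187 of all 304 abundant genes lay from 200 to under 400 CPM, and 30 of these were among the 41. All but 2 of the 41 had a mean below 1000 CPM. Together they took 2.42% of the counts in fibroblasts, 2.60% in iNSLCs and 2.67%, 2.30% and 2.66% in iPSC clones 1 to 3. The joint share was lowest in clone 2, which was also the library with the largest mitochondrial share, and the part of that share in the level was not tested. The smallest count behind any of these values was 2429, whose Poisson error is 2.03%, so that counting error was small beside the permitted ratio.

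The gene with the highest level was ENSCAFG00000002656, a model of 8 exons on the minus strand of chromosome 12 (35576576 to 35581236). It had 7298 CPM in fibroblasts, 9686 CPM in iNSLCs and 9285, 7138 and 9151 CPM in the iPSC clones. In CPM the fibroblast library and clone 2 were the low ones and lay close together, whereas iNSLCs and clones 1 and 3 were higher. The clones averaged 8525 ± 1203 CPM (SD, n = 3). TMM scaling, which goes by the bulk of the genes rather than by totals, gave 9483 CPM in fibroblasts and 9884 CPM in iNSLCs. The clones then had 8489, 6361 and 8484 CPM, all below fibroblasts, and the ratio was 1.55, beyond the limit. In every library this gene stood among the first 6 nuclear genes by CPM. Per exonic kilobase its mean level was 2923 CPM, the highest of the 41.

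ENSCAFG00000005101 (chromosome 23, 9070953 to 9077058) came next. Fibroblasts held 1270 CPM, iNSLCs 1263 CPM and the clones 1088, 1116 and 1585 CPM. Here, in CPM, the fibroblast and iNSLC values fell inside the range of the clones, and clone 3 alone set the ratio of 1.46. ENSCAFG00000017093 (chromosome 20, 49250753 to 49255568) had 839 CPM in fibroblasts, 834 CPM in iNSLCs and 1013, 782 and 1103 CPM in the clones. It likewise differed more among the clones than between fibroblasts and iNSLCs. With TMM fibroblasts lay above all clones for both genes, at 1650 CPM for ENSCAFG00000005101 and 1090 CPM for ENSCAFG00000017093. Their ratios were then 1.66 and 1.56. Per exonic kilobase, the mean levels were 1153 CPM for ENSCAFG00000005101 and 580 CPM for ENSCAFG00000017093, while the median of the 41 genes was 109 CPM and that of the other abundant genes 295 CPM.

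**Figure D1:**
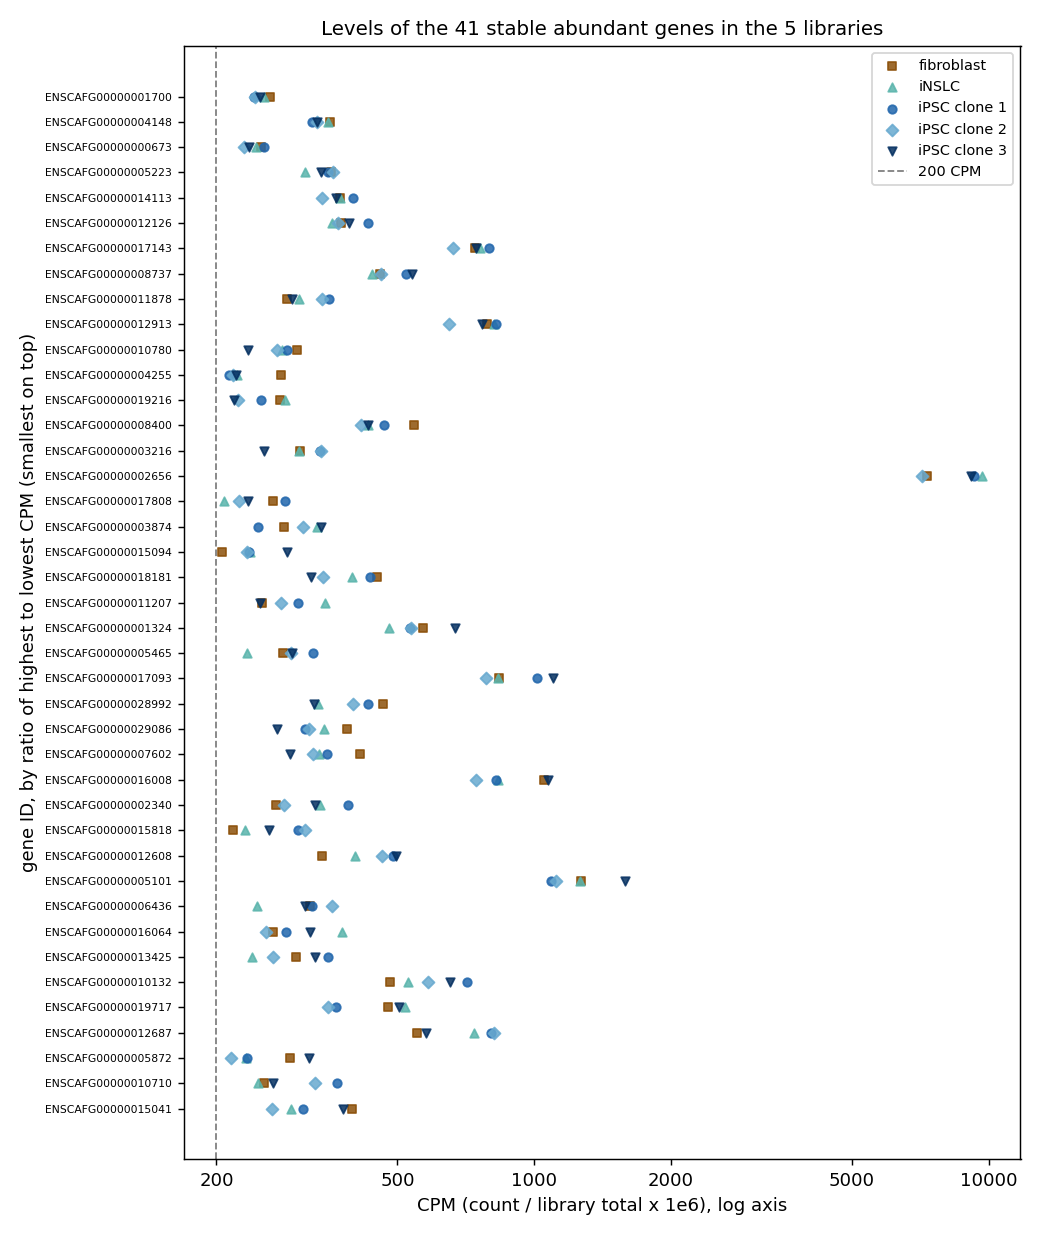
CPM of the 41 stable abundant genes (1 row per gene ID, smallest ratio on top) in the fibroblast library, the iNSLC library and the 3 iPSC clones, on a log axis with a dashed line at 200 CPM. Most rows lie between 206 and 1585 CPM, and ENSCAFG00000002656 stands apart with up to 9686 CPM.

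The 3 smallest ratios belonged to genes with mean levels of 250, 340 and 243 CPM, beside a median of 328 CPM over the 41. Small ratios were not limited to such levels. ENSCAFG00000017143, with a mean of 741 CPM, had a ratio of 1.20. ENSCAFG00000001700 (chromosome 14, 8260919 to 8685952) had the smallest ratio of all, 1.08. Its levels were 262 CPM in fibroblasts, 255 CPM in iNSLCs and 242, 243 and 250 CPM in the clones. In CPM all clones lay below the fibroblast and iNSLC libraries, but the difference was small. Scaled with TMM, the levels were 341 CPM in fibroblasts, 260 CPM in iNSLCs and 221, 217 and 231 CPM in the clones. The ratio was then 1.57, beyond the limit. This gene also had the longest exonic sequence of the 41, 7719 bp in 24 exons, and the lowest mean level per exonic kilobase, 32.4 CPM.

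ENSCAFG00000004148 (chromosome 20, 2607378 to 2640698) had a ratio of 1.09. Fibroblasts held 355 CPM, iNSLCs 352 CPM and the clones 325, 333 and 333 CPM. Its clones differed least among the 41 genes, by a ratio of 1.03. ENSCAFG00000000673 (chromosome 10, 16959139 to 16974381), with 37 exons the gene of most exons, had a ratio of 1.11. It had 250 CPM in fibroblasts, 245 CPM in iNSLCs and 255, 230 and 236 CPM in the clones, so that the fibroblast and iNSLC values lay within the range of the clones. These small ratios held in CPM only. With TMM they were 1.55 for ENSCAFG00000004148 and 1.59 for ENSCAFG00000000673, both beyond the limit. In CPM a ratio of at most 1.3 was met by 13 of the 41 genes.

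The limits cut through a continuous range of genes. Just inside the ratio of 1.5 lay ENSCAFG00000015041 (chromosome 2, 78268503 to 78275789, ratio 1.4996), ENSCAFG00000010710 (chromosome 38, 11005428 to 11061551, ratio 1.49) and ENSCAFG00000005872 (chromosome 9, 420806 to 422066, ratio 1.48). ENSCAFG00000015041 had 397 CPM in fibroblasts, 292 CPM in iNSLCs and 310, 265 and 379 CPM in the clones. ENSCAFG00000010710 had 254 CPM in fibroblasts, 247 CPM in iNSLCs and 369, 329 and 266 CPM in the clones. In CPM the spread among the clones made up most of the range in both genes. With TMM ENSCAFG00000015041 had 516 CPM in fibroblasts and 283, 236 and 351 CPM in the clones, a ratio of 2.19. That of ENSCAFG00000010710 was 1.37.

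ENSCAFG00000005872 was the shortest of the 41, with 612 bp in 5 exons, and the one whose clones differed most. It had 290 CPM in fibroblasts, 232 CPM in iNSLCs and 234, 216 and 320 CPM in the clones, which gives 256 ± 55.6 CPM (SD, n = 3) for iPSCs. In CPM its highest and its lowest value were both iPSC clones. With TMM the highest value was in fibroblasts, 377 CPM, and the ratio was 1.96. Just outside lay ENSCAFG00000003120, ENSCAFG00000005204 and ENSCAFG00000010598, with ratios of 1.503, 1.508 and 1.515. The first of these had 305 CPM in fibroblasts, 369 CPM in iNSLCs and 361, 246 and 274 CPM in the clones.

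At the limit on the level, ENSCAFG00000015094 (chromosome 6, 10211399 to 10245017) passed with a lowest value of 206 CPM, in fibroblasts, and ENSCAFG00000017808 (chromosome 30, 36845157 to 36880077) with 208 CPM, in iNSLCs. ENSCAFG00000010377 and ENSCAFG00000005807 met the ratio but missed the level, at 199 CPM in iPSC clone 2 and 192 CPM in fibroblasts. The share of genes within the ratio did not climb steadily with the level. Among nuclear genes with a lowest level from 10 to under 25 CPM it was 4.76%. It was 12.3% from 100 to under 200 CPM and 16.0% from 200 to under 400 CPM. Above that it was lower again, with 9 of 82 genes from 400 to under 800 CPM and 2 of 35 genes (5.71%) from 800 CPM.

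**Figure D2:**
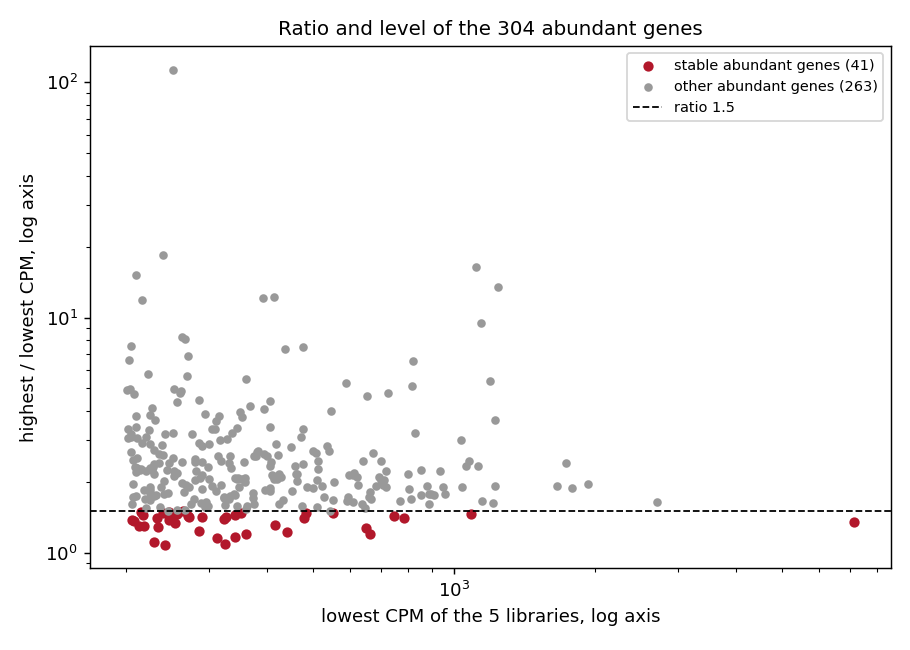
Ratio of the highest to the lowest CPM against the lowest CPM of the 5 libraries, both on log axes, for the 41 stable abundant genes (red) and the other 263 abundant genes (grey), with a dashed line at a ratio of 1.5. The red points form the lower edge of 1 cloud, which rises to a ratio of 113 for a single grey gene.

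In CPM, the scale that chose the 41 genes, no single library was the highest or the lowest for most of them. The highest of the 5 values was in fibroblasts for 10 genes, in iNSLCs for 5 and in clones 1, 2 and 3 for 12, 5 and 9. The lowest value was in fibroblasts for 7 genes, in iNSLCs for 9 and in the clones for 5, 12 and 8. Among the other abundant genes, by contrast, the fibroblast library held the lowest value for 151 of 263 genes. The ratio among the clones alone had a median of 1.22 over the 41 genes and was under 1.1 for 5 of them, against a median of 1.43 in the other abundant genes. As the rule used every clone, these are descriptions. TMM scaling sets libraries against each other by the bulk of their genes rather than by their totals. With it, a reading added after the data were seen, fibroblasts held the highest value for 33 of the 41 genes and the lowest for 0, and clone 2 the lowest for 25. Among the other abundant genes fibroblasts then held the lowest value for 71 of 263 and the highest for 73. Clone 2 held the lowest for 88. The number of other abundant genes lowest in fibroblasts thus depended on the scaling.

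In CPM the fibroblast value lay outside the range of the 3 clones for 21 of the 41 genes, above all clones for 11 and below all for 10. Over all 17455 nuclear genes tested it lay outside for 81.6%. The iNSLC value also lay outside for 21 genes, above for 9 and below for 12, where the share over all tested genes was 76.4%. The choice of genes with similar CPM lowers these counts by itself. With TMM scaling the fibroblast value was above all clones for 36 of the 41 genes and below all for 0, where it lay outside for 80.2% of all tested genes. The iNSLC value was then above all clones for 20 genes and below all for 4, where the share over all tested genes was 76.1%. In CPM the ratio of the iPSC mean to the fibroblast library ranged from 0.779 to 1.41 over the 41 genes with a median of 0.994, and that of the iPSC mean to the iNSLC library from 0.764 to 1.35 with a median of 1.02. The ratio of iNSLCs to fibroblasts ranged from 0.721 to 1.41, with a median of 0.977.

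Ranks within a library do not depend on how libraries are scaled to each other. Over the 5 libraries the rank of a stable abundant gene among nuclear genes moved by between 5 and 371 places, with a median of 177. For 11 genes it moved by fewer than 100 places. ENSCAFG00000001700, the gene with the smallest ratio, stood between place 521 and place 728. A near-constant CPM did thus not fix a gene's order among its neighbours in level.

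The level in a library that took no part in the choice was read next. Genes were chosen by the same limits on 4 libraries and then read in the remaining one. Without the fibroblast library 132 genes met the limits, and 41 of these (31.1%) still met them once it was added. Of the 91 lost genes, 78 were lower in fibroblasts than the geometric mean of the other 4 libraries and 13 were higher. For the iNSLC library 41 of 78 genes (52.6%) passed, with 26 of the 37 lost genes lower there. When the choice and the reading were both made with TMM-scaled levels, 38 of 128 genes (29.7%) passed for the fibroblast library, and 55 of the 90 lost genes were lower there and 35 higher. The median level in fibroblasts, relative to the mean of the other 4 libraries, was 0.706 in CPM and 0.917 with TMM. For the 132 genes chosen in CPM it was 0.979 once their levels were scaled with TMM. The low fibroblast levels thus depended on the scaling, while the share that passed was the smallest for fibroblasts in both.

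In CPM the clones took fewer genes away. Each clone left other clones of its group in the choice, while fibroblasts and iNSLCs had 1 library each. The shares of the clones are therefore not on equal terms with those of fibroblasts and iNSLCs. The genes that passed in CPM were the same 41 each time, as the rule requires. With clone 1 left out 41 of 45 genes (91.1%) still passed, with clone 2 left out 41 of 58 (70.7%), and with clone 3 left out 41 of 73 (56.2%). With TMM the shares were 76.0%, 55.1% and 46.3% for clones 1 to 3 and 48.1% for iNSLCs, so that clone 3 then removed a larger share than the iNSLC library. In CPM the left-out value was apart from the mean of the other 4 libraries by a median of 1.48 times for fibroblasts, 1.27 times for iNSLCs, and 1.13, 1.17 and 1.25 times for clones 1 to 3. For all genes with at least 200 CPM in the other 4 libraries, whatever their ratio, the same medians were 1.78, 1.32, 1.19, 1.23 and 1.39 times in that order. A distance over 2 times was found in fibroblasts for 26 of the 132 chosen genes (19.7%) and for 40.9% of all such abundant genes. It was found in iNSLCs for 4 of the 78 chosen genes (5.13%) and for 9.91% of all such abundant genes. In clones 1, 2 and 3 it was found for 0, 0 and 1 of the chosen genes, and for 3.58%, 6.94% and 8.13% of all such abundant genes.

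**Figure D3:**
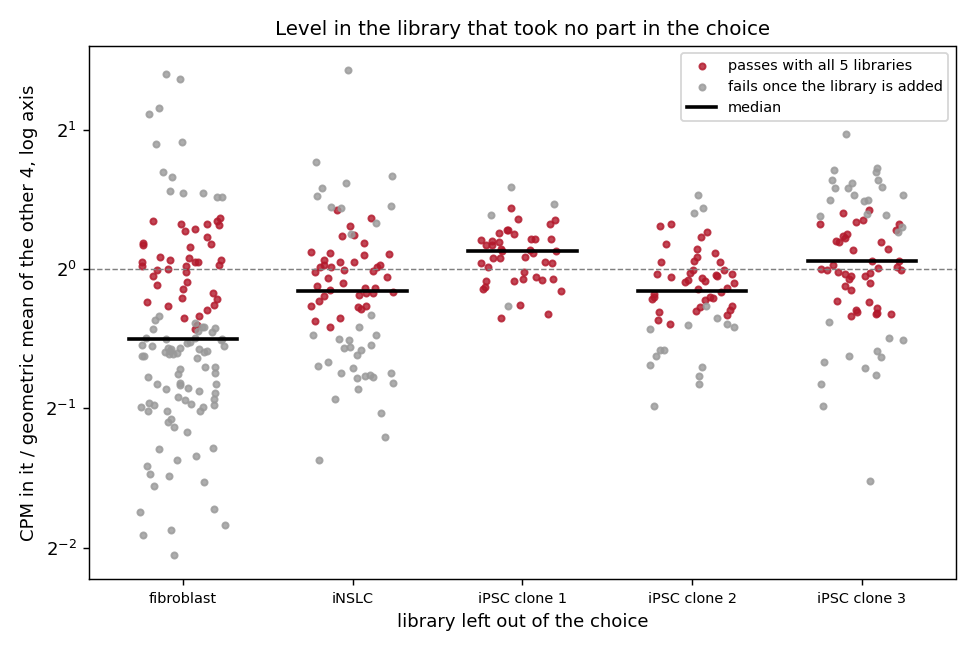
CPM in the library left out of the choice, divided by the geometric mean of the other 4 libraries, on a log axis with 1 point per gene chosen on those 4 (132, 78, 45, 58 and 73 genes from left to right). Red points pass with all 5 libraries, grey points fail, and black bars are medians, of which that of fibroblasts is lowest at 0.706.

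Ratios between 2 genes of the same library are also free of the scaling between libraries. Over the 820 pairs of stable abundant genes, the log2 ratio of a pair had its smallest SD over the 5 libraries, 0.0205, for ENSCAFG00000001700 and ENSCAFG00000004148. The level of the first was 0.739 times that of the second in fibroblasts, 0.723 times in iNSLCs and 0.745, 0.731 and 0.749 times in the clones, in CPM without correction for length. The largest SD was 0.512, for ENSCAFG00000019717 and ENSCAFG00000010710. Their ratio was 1.88 in fibroblasts, 2.10 in iNSLCs and 0.992, 1.07 and 1.89 in the clones. Clones 1 and 2 were the low ones in this pair, while clone 3 was close to the fibroblasts. Averaged over the other 40 genes, the SD was smallest for ENSCAFG00000000673, at 0.177, and largest for ENSCAFG00000012687, at 0.328. Such SDs over 5 libraries are descriptions of genes picked for even levels.

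The comparisons between the groups were made with edgeR, a test for counts, in 1 fit of all 5 libraries with TMM scaling. Against fibroblasts, 28.0% of 17479 genes were called different in iPSCs at an adjusted p under 0.05, and 0 of the 41 stable abundant genes. At an unadjusted p under 0.05 there were 8 of the 41 and 43.6% of all genes, and the smallest adjusted p among them was 0.0605 (edgeR). DESeq2, the other test run, called 4 of the 41, all lower in iPSCs, where it called 34.3% of all genes and 16.3% as lower. Against iNSLCs, edgeR called 11.2% of all genes and 0 of the 41, with 0 of the 41 and 31.2% of all genes at an unadjusted p under 0.05, and DESeq2 called 19.9% of all genes and 0 of the 41. The background rested on single clones. Without clone 3 edgeR called 2779 genes against fibroblasts, where 4895 were called with all clones. Against iNSLCs it called 0 genes without clone 3 (4863 at an unadjusted p under 0.05) and 4159 without clone 2, where 1961 were called with all clones and DESeq2 called 3480. The rule used these libraries, so that nothing is read from the counts of the 41 genes.

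A change of scaling moves the fold changes of all genes by nearly the same amount. Genes chosen for an even CPM then move together, and their signs under each scaling follow from the choice and are given as a description. With TMM all of them had a negative log2 fold change between iPSCs and fibroblasts, from -0.87 to -0.01, with a median of -0.52, while the median over all tested genes was 0.27 and that of the other abundant genes 0.07. Values below those of genes in general also follow from the choice, since the median CPM ratio of iPSCs to fibroblasts was 1.51 over all tested nuclear genes. With library size as the only scaling, their median was -0.01, 21 were negative and 20 positive, and the median over all genes was 0.78. With upper quartile scaling 36 were negative and 5 positive, with a median of -0.32. With TMM the standard error of the fitted values lay between 0.27 and 0.36, and edgeR called 0 of the 41 genes under each of these 3 scalings. With library size 0 of the 41 passed an unadjusted p under 0.05, where 47.4% of all genes did and 32.4% were called. With the upper quartile 0 of the 41 passed it, where 44.5% of all genes did and 28.7% were called. By clone, the median over the 41 genes against fibroblasts was -0.44, -0.65 and -0.46 with TMM (SD 0.11, n = 3).

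ENSCAFG00000029086 (chromosome 20, 32850048 to 32873415) had the largest of these differences and the smallest adjusted p of the 4 genes called by DESeq2. It was picked after its values were seen. It had 312, 320 and 272 CPM in the iPSC clones, and 387 CPM in fibroblasts, with 345 CPM in iNSLCs. All clones lay below the fibroblast library. Scaled with TMM, the values were 286, 285 and 252 CPM in the clones and 503 CPM in fibroblasts, which is beyond the ratio of 1.5. On the log2 scale edgeR gave -0.87 ± 0.28 (standard error worked out from its F test, adjusted p = 0.0644). DESeq2 gave -0.92 ± 0.36 (standard error, adjusted p = 0.0320).

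At the other end was ENSCAFG00000012608 (chromosome 34, 17180119 to 17189352), likewise picked after its values were seen. It had 490, 463 and 496 CPM in the clones, and 342 CPM in fibroblasts, with 403 CPM in iNSLCs. In CPM every clone was above the fibroblast library. Scaled with TMM, it had 448, 412 and 460 CPM in the clones and 444 CPM in fibroblasts, and edgeR gave -0.01 ± 0.29 on the log2 scale (standard error, adjusted p = 0.977). The fibroblast value then lay within the range of the clones.

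The same holds for the comparison with iNSLCs. With TMM the median log2 fold change of the 41 genes between iPSCs and iNSLCs was -0.14, where that of all tested genes was 0.20, and 28 were negative and 13 positive. With library size only the median was 0.02, with 20 negative and 21 positive. Between iNSLCs and fibroblasts, which had 1 library each and were not tested, the median log2 ratio of TMM-scaled levels was -0.38 over the 41 genes. With library size only it was -0.03. The iPSC comparisons share the clones, and both comparisons with fibroblasts share that library, so that their values are not independent of each other.

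Which genes counted as stable therefore changed with the scaling more than their number did. With TMM-scaled levels 38 genes met the same limits, and 11 of them were among the 41, that is 26.8% of the 41 and 28.9% of the 38. With the size factors of DESeq2 there were 40 genes, 10 of them shared, and with the upper quartile 44 genes, 23 of them shared. In all 4 scalings 9 genes met the limits. ENSCAFG00000012608 and ENSCAFG00000012687 were among these 9. The median ratio of the highest to the lowest level of the 41 genes was 1.39 in CPM and 1.63 after TMM. The TMM factors were 0.770 for fibroblasts, 0.980 for iNSLCs and 1.09, 1.12 and 1.08 for the clones.

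When the libraries were instead scaled so that the summed counts of the 41 genes were equal, the split of the calls over all genes moved. Between iPSCs and fibroblasts, 64.8% of the called genes were then higher in iPSCs, against 48.8% with TMM and 68.1% with library size only. The number of calls was 5030, against 4895 with TMM. Between iPSCs and iNSLCs the share of higher genes was 39.4%, against 31.3% with TMM and 41.7% with library size only, and the number of calls was 1663, against 1961 with TMM. In this scaling the tested genes as a whole had a median of 0.71 against fibroblasts and 0.40 against iNSLCs on the log2 scale. As the 41 genes were chosen for an even CPM, this scaling stayed close to library size, with factors from 0.912 to 1.06, and its distance from TMM follows from the choice.

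**Figure D4:**
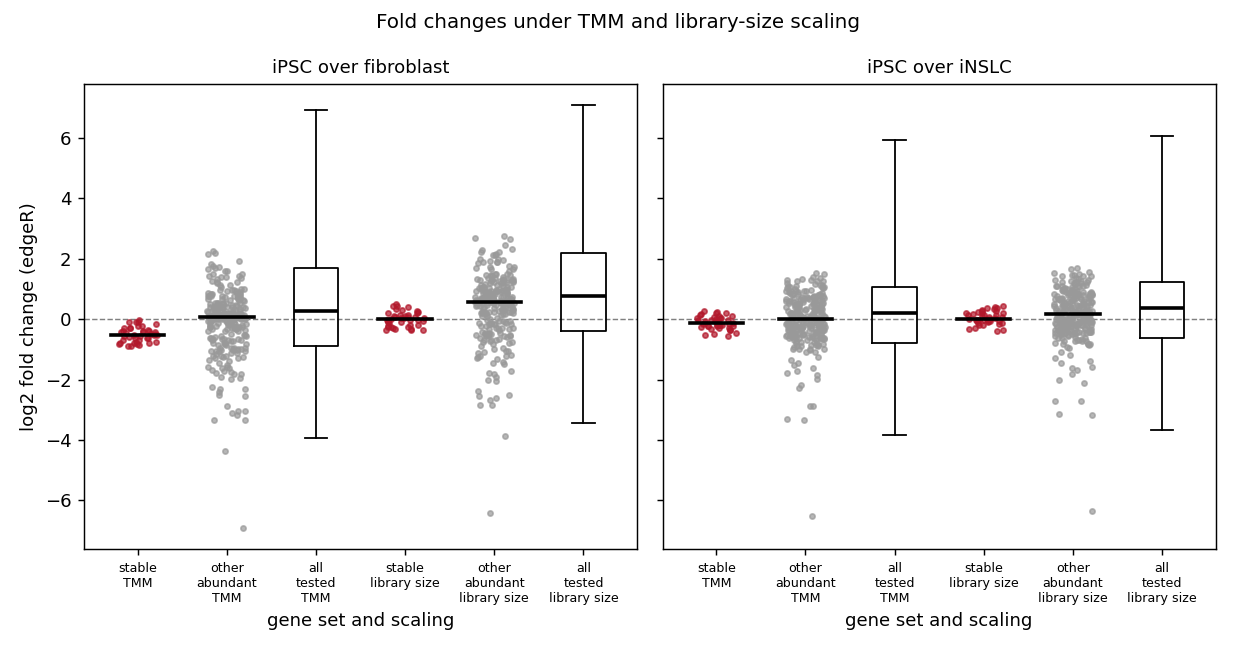
Fitted log2 fold changes (edgeR) of iPSCs over fibroblasts and of iPSCs over iNSLCs, for the 41 stable abundant genes (red), the other 263 abundant genes (grey) and all 17479 tested genes (box from the lower to the upper quartile, whiskers at the 5th and 95th percentile), with TMM and with library size only. Black bars are medians. With TMM every red point against fibroblasts lies below 0, and with library size only they lie around 0.

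The rule did not use the features of the gene models directly. CPM is not corrected for length, however, so that a minimum in CPM can favour long models. The comparison with all tested genes is therefore not free of the choice. That with the other abundant genes may not be either, as their median level was 631 CPM against 328 CPM in the 41. The 41 genes had a median exonic length of 3056 bp and a median of 13 merged exons, against 2324 bp and 10 exons in the other abundant genes and 2108 bp and 7 exons in all nuclear genes tested. Short models were rare among them. Only 1 of the 41 (2.44%) had under 1000 bp of exonic sequence, against 60 of the 263 other abundant genes (22.8%) and 22.3% of all tested genes. Models of a single exon numbered 0 of 41, 6 of 263 (2.28%) and 1600 of all tested genes (9.17%). At the other end, 13 of the 41 genes (31.7%) had 20 exons or more, against 19.0% of the other abundant genes. No test over genes was made of these differences.

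**Figure D5:**
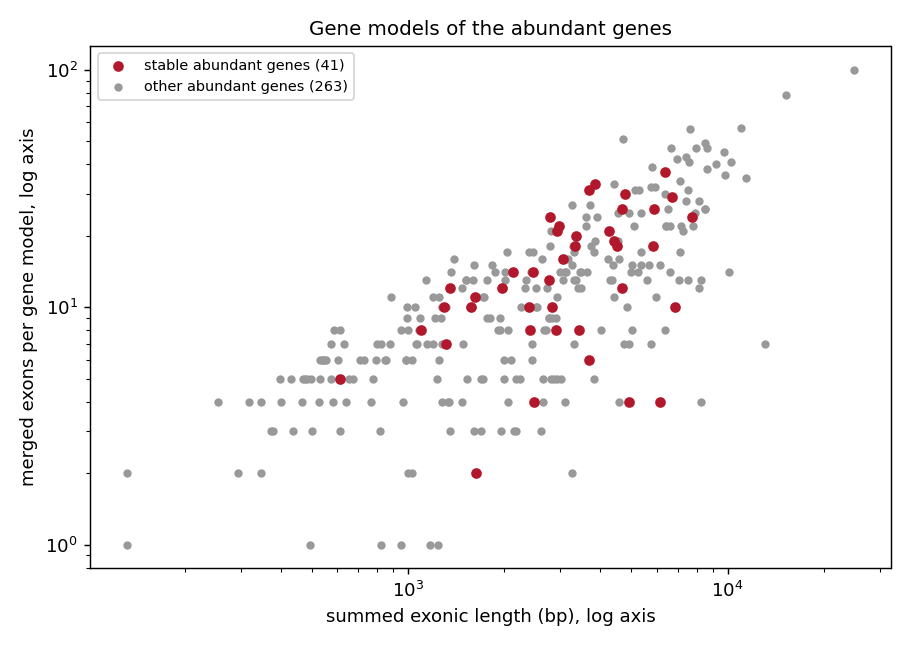
Number of merged exons against summed exonic length in bp, both on log axes, for the 41 stable abundant genes (red) and the other 263 abundant genes (grey). The red points run from 612 bp to 7719 bp and from 2 to 37 exons, and 1 of them lies below 1000 bp.

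In position the genes were scattered. They lay on 21 chromosomes, with 6 on chromosome 20, 4 on chromosome 5 and at most 3 on any other. Chromosome 20 held 14.6% of them, against 5.32% of the other abundant genes and 4.63% of all tested genes, a description with no test. The plus strand held 21 of the 41. Exons of 6 genes (14.6%) overlapped those of another model, so that reads can be shared or lost there, and the share was 11.8% in the other abundant genes.

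The only neighbouring members, with no other model between them, were ENSCAFG00000012608 and ENSCAFG00000012687 on the plus strand of chromosome 34, 5198 bp apart. ENSCAFG00000012687 (17194551 to 17214052) had 552 CPM in fibroblasts, 737 CPM in iNSLCs and 805, 816 and 578 CPM in the clones. In CPM both genes of the pair were lowest in fibroblasts, but clone 3 was the highest library for ENSCAFG00000012608 and the lowest clone for ENSCAFG00000012687. With TMM ENSCAFG00000012608 was lowest in iNSLCs, at 411 CPM against 444 CPM in fibroblasts. ENSCAFG00000012687 was then lowest in clone 3, at 536 CPM against 717 CPM in fibroblasts. The exons of ENSCAFG00000012687 overlap those of another model.

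Genes next to the 41 were mostly not stable themselves. Of 80 other models beside them, 28 had at least 10 CPM in every library, with a median ratio of 2.15, and 2 of these (7.14%) were within 1.5. Among the neighbours of the other abundant genes, 157 models reached 10 CPM, with a median ratio of 2.42, and 16 (10.2%) were within 1.5. Of all 6818 nuclear models at that level, 7.77% were within 1.5. No test was made of these shares.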

How the data were processed

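The deposited values were raw counts of reads per gene model, which the authors had not normalized, and the summed exonic length of each model. The submitters' processing notes name CanFam3.1 and list featureCounts 1.5.2, STAR 2.5.3a and Trim Galore 0.4.0. Settings for strand and for reads with several matches were not given in the sources used, and genes with close copies can lose or share reads. CPM was the count over the column total.

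The members and lists were chosen with earlier results of these data known. Named genes were the 3 highest in mean CPM, the 3 with the smallest ratio, those nearest to each limit on either side, the extremes of length, exons and clone spread, and called members (0 in edgeR). The other genes named were outside these lists and were picked later. They were ENSCAFG00000029086, ENSCAFG00000012608, ENSCAFG00000012687, ENSCAFG00000017143 and ENSCAFG00000019717.

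Tests were run in R 4.3.3 with edgeR 4.0.16 (TMM, filterByExpr, quasi-likelihood, 1 fit of 3 groups, Benjamini-Hochberg adjusted p under 0.05) and, as an alternative, DESeq2 1.42.0. Only the edgeR fit was tested on simulated data, and the simulated variation was smaller than that estimated here. The other steps were not tested in this way. The spread came from 3 clones of 1 dog, and the lone libraries were assumed to vary like them. The p-values therefore cover clone-to-clone spread only. Poisson errors cover counting error only. Gene lists by symbol were not analysed here.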

Additional observations from a re-analysis of the deposited data

How the results depend on the processing

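The number of stable abundant genes, 41, was 64 with totals that leave out the 50 most abundant genes, 105 and 11 with a minimum of 100 and 400 CPM, and 13 and 136 with a ratio of at most 1.3 and 2. Leaving out 1 library gave 45 to 132 genes, with 132 without fibroblasts, 78 without iNSLCs and 73 without clone 3, as fewer libraries have to meet the limits. Of the 64 genes found without the 50 most abundant genes in the total, 31 were among the 41. Without mitochondrial models in the total the number was 42, of which 35 were among the 41. With the ratio taken per exonic kilobase and the minimum still in CPM it was 37, of which 25 were among the 41. The median log2 fold change of the 41 genes against fibroblasts was -0.32 with the upper quartile, -0.0081 with library size and -0.083 scaled to these genes, and -0.52 to -0.42 without 1 clone. Against iNSLCs it was 0.022 with library size and 0.058 scaled to these genes, and -0.26 to -0.11 without 1 clone, the lowest without clone 3. Between iNSLCs and fibroblasts it was -0.033 with library size and -0.19 with the upper quartile. With TMM, an alternative chosen after seeing the data, fibroblasts were the highest library for 33 of the 41 genes, against 10 in CPM, and lay outside the clones for 36, against 21. Over all genes, calls against fibroblasts numbered 2779 to 6906 without 1 clone, and 2779 without clone 3. Against iNSLCs they numbered 0 to 4159, with 0 without clone 3 (edgeR, 4863 at an unadjusted p under 0.05) and 4159 without clone 2, and DESeq2 called 3480 on all libraries. In edgeR 0 of the 41 genes were called under each alternative run. Of all genes, these runs called 16.6% to 40.3% against fibroblasts and 0% to 24.3% against iNSLCs. DESeq2 called 4 of the 41 against fibroblasts, where it called 34.3% of all genes. As the rule used these libraries, nothing is read from the counts of the 41. The cause of the differences between runs was not tested. Of 80 ratios of the 16 named genes under other scalings, 28 moved by more than the spread between clones. No paired analysis was possible because fibroblasts and iNSLCs had 1 library each. Depth limits little here, as the smallest count was 2429, but 1 library per group gives no spread for fibroblasts and iNSLCs.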
